A study of Mus musculus with 9 samples.

Results

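The genes described here belong to the pathway that produces secretory IgA in the gut: the plasma cell genes Jchain, Mzb1, Derl3, Tnfrsf17, Prdm1 and Irf4, the B cell receptor chains Cd79a and Cd79b, and the epithelial IgA transporter Pigr. Their probes were taken by gene symbol: 10 probes of 9 genes, out of 26423 probes in all. The genes, and the lists below, were chosen with earlier results of these data known. Their shares beside those of all probes are therefore descriptions and not tests. Jchain had 2 probes, under its older symbol Igj, and each of the other genes had 1. The platform's own symbols gave 9 of the probes, and that of Mzb1 was found through a synonym.

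Total RNA of the colon was measured in female mice of the BALB/c strain, on 9 arrays split evenly over 3 groups. Vanillin mice received azoxymethane (AOM), a carcinogen, at 12.5 mg/kg into the peritoneum on day 1, and from day 8 had 2.5% DSS (dextran sodium sulfate, a compound toxic to colon epithelium) in the water for 5 days and then plain water for 16 days, with 3 further cycles. They also took 100 mg/kg vanillin by mouth for 91 days. Sham mice had the same AOM/DSS course without vanillin, and Mock mice were untreated. The labels do not give the age of the mice, or whether the arrays of a group came from separate mice, so each p-value reflects array-to-array spread alone, and that spread may be technical.

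In the gut wall, plasma cells of the lamina propria secrete IgA as dimers held together by the J chain. The polymeric immunoglobulin receptor, the product of Pigr, binds these dimers at the base of epithelial cells, carries them through the cell and is cut to release secretory IgA into the lumen. Plasma cells arise from B cells under Irf4 and Blimp-1 (the product of Prdm1), and enlarge the endoplasmic reticulum (ER), where immunoglobulin is assembled. Cd79a and Cd79b are the signalling chains of the B cell receptor.

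Sequences of 4 promoters, each from 250 bases before to 50 bases after the start site, are shown because these genes carried the 4 patterns described below: a steep rise (the largest of the 10 probes on Jchain's dimmer probe, while Mzb1 rose more than Jchain's brighter one), a smaller rise with the largest decrease under vanillin, the opposite direction, and a small change in the transporter. They are from RefSeq on GRCm38.p6: Jchain at chr5:88527848-88528147 on the minus strand, Derl3 at chr10:75893148-75893447 on the plus strand, Prdm1 at chr10:44458699-44458998 on the minus strand and Pigr at chr1:130826434-130826733 on the plus strand. Capitals mark matches, on either strand, to any of 7 motifs: the octamer core TGCAAAT, the E box CACGTG, the ER stress core CCACG, the interferon regulatory factor repeat, the early B cell factor core CCCNNGGG, the Blimp-1 core GTGAAAG and the TATA box TATAAA.
Jchain: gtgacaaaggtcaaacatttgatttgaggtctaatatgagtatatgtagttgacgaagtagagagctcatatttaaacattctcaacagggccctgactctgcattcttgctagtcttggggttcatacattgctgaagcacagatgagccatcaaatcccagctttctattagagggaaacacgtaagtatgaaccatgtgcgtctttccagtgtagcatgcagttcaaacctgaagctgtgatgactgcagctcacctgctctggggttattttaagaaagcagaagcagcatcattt
Derl3: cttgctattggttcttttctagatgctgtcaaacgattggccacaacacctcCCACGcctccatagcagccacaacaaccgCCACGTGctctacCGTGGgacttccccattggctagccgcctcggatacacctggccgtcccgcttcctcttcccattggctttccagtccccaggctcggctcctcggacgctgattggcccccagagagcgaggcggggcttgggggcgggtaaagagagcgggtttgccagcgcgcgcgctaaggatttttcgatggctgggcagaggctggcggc
Prdm1: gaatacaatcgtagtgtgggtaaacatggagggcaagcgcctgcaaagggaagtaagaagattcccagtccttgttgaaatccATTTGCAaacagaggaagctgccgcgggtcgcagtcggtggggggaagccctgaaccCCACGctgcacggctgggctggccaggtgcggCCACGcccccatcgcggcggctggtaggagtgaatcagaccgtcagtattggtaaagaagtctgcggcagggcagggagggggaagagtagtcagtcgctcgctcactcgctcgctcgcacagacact
Pigr: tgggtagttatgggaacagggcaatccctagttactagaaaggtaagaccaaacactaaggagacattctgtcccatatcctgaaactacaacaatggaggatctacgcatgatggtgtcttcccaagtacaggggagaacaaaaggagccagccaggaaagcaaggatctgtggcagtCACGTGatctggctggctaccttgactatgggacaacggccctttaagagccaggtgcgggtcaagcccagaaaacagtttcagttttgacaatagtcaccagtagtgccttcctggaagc

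The promoter of Derl3, a gene of the ER stress response, held 3 copies of the ER stress core, one of them overlapping an E box. That of Pigr held 1 E box, whose first base lay at position -71 from the start site, counting the base before the start as -1. That of Prdm1 held 1 octamer core and 2 ER stress cores. That of Jchain held none of the 7 motifs in this window. Among 32851 promoters of the same length, 32.8% held the ER stress core, 13.7% the early B cell factor core, 13.6% the TATA box, 7.15% the E box, 4.24% the Blimp-1 core, 4.02% the octamer core and 3.44% the interferon regulatory factor repeat. Promoters of 7 of the 9 genes were used, and of these 4 held the ER stress core, 2 the E box and 2 the TATA box (Irf4 and Tnfrsf17). Prdm1 alone held the octamer core and Tnfrsf17 alone the interferon regulatory factor repeat, and none of the 7 held the other 2 motifs.

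Values below are linear probe intensities, as deposited by the authors, and changes are differences of log2(intensity + 16) with their standard error (SE). A probe was called at a Benjamini-Hochberg adjusted p under 0.05 in limma's moderated test over all probes. Levels of different probes are not comparable, so each gene is compared only with itself, and where a difference between probes is taken within an array, only its change between groups is read. Averaged over all arrays, none of the 10 probes was dim: their means lay between the 47.6 and the 99.5 percentile of all probes. In Mock, however, Irf4 (161) and Jchain's dimmer probe (162) averaged below the median intensity per array (319.6 to 320.1). Markers of other tissues differed between the groups. Summed intensities of 16 squamous epithelium and skin markers ran from 401901 to 453158 in Vanillin, from 48915 to 50878 in Sham and from 664982 to 671173 in Mock. Those of 12 adipocyte markers ran from 161578 to 168929 in Vanillin, from 5429 to 5499 in Sham and from 181086 to 186703 in Mock. Those of 11 smooth and skeletal muscle markers ran from 86651 to 96178 in Vanillin, from 42781 to 45579 in Sham and from 196794 to 206845 in Mock. Most of the Sham sum was Acta2 (36624). The skeletal muscle genes Acta1, Ckm, Tnnt3, Tnni2 and Actn3 had 1020, 239, 322, 803 and 60.3 in Sham. Their Mock values were 35299, 22066, 18453, 30667 and 1139, and their Vanillin values 22941, 4197, 4903, 11168 and 43.9. Colon epithelium markers (17 measured) were present in every group, with sums from 414422 to 423711 in Vanillin, from 449379 to 463582 in Sham and from 342907 to 358958 in Mock, although the Krt8 probe was below an intensity of 50 in all 3 groups and Krt18 in Vanillin. The labels do not name the stretch of colon sampled, and whether it was the same in every group was not tested. The part of these tissue differences in the results below, those against Mock included, was not tested, and in whole tissue fewer cells of a type and less RNA per cell cannot be told apart.

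Sham minus Mock sets the AOM/DSS colon against the untreated one. The tissue markers above also differed between these groups, and their part in the changes was not tested. Genes of immunoglobulin assembly rose most, Mzb1 10.5-fold and Jchain 8.93-fold on its brighter probe, while Prdm1 fell to 40.5% of its Mock value and Cd79a did not pass the test. Of the 10 probes, 8 were called higher, against 36.5% of all probes, and 1 was called lower, against 23.2% of all probes. Arrays of the 2 groups did not overlap for the same 9 probes: the 8 had every Sham array above every Mock array, as had 41.2% of all probes, and Prdm1 had every one below, as had 25.9%. The median change was 1.70 over the 10 probes and 0.10 over all probes.

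Vanillin minus Sham sets the AOM/DSS colon with vanillin against that without it. The tissue markers above differed here too, and their part was not tested. Of the 9 genes, 7 were lower with vanillin, led by Derl3 at 49.1% and Tnfrsf17 at 50.2% of the Sham value, while Prdm1 was 1.74-fold higher. Of the 10 probes, 8 were called lower, against 32.2% of all probes, and 1 was called higher, against 15.7% of all probes. The 8 had every Vanillin array below every Sham array, as had 38.1% of all probes, and Prdm1 had every one above, as had 18.2%. The median change was -0.52 over the 10 probes and -0.09 over all probes. This comparison and Sham minus Mock share the Sham arrays with opposite sign, so the values of both are given side by side and their opposite directions are not a result in themselves.

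Vanillin minus Mock sets the vanillin-treated AOM/DSS colon against the untreated one. Of the 10 probes, 7 were called higher, against 24.5% of all probes, 1 was called lower, against 26.2% of all probes, and those of Cd79a and Pigr were not called. For the 7 every Vanillin array was above every Mock array, as for 29.2% of all probes, and for Prdm1 and Pigr every one was below, as for 31.2%. The median change was 1.05, against 0.00 over all probes. The Sham, Vanillin and Mock levels thus stood in that descending order for Jchain, Mzb1, Derl3, Tnfrsf17, Irf4 and Cd79b, with no overlap between neighbouring groups. The share of all probes with this order was not computed, and the shares given for single comparisons do not supply it, so how common the order was is not known.

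**Figure D1:**
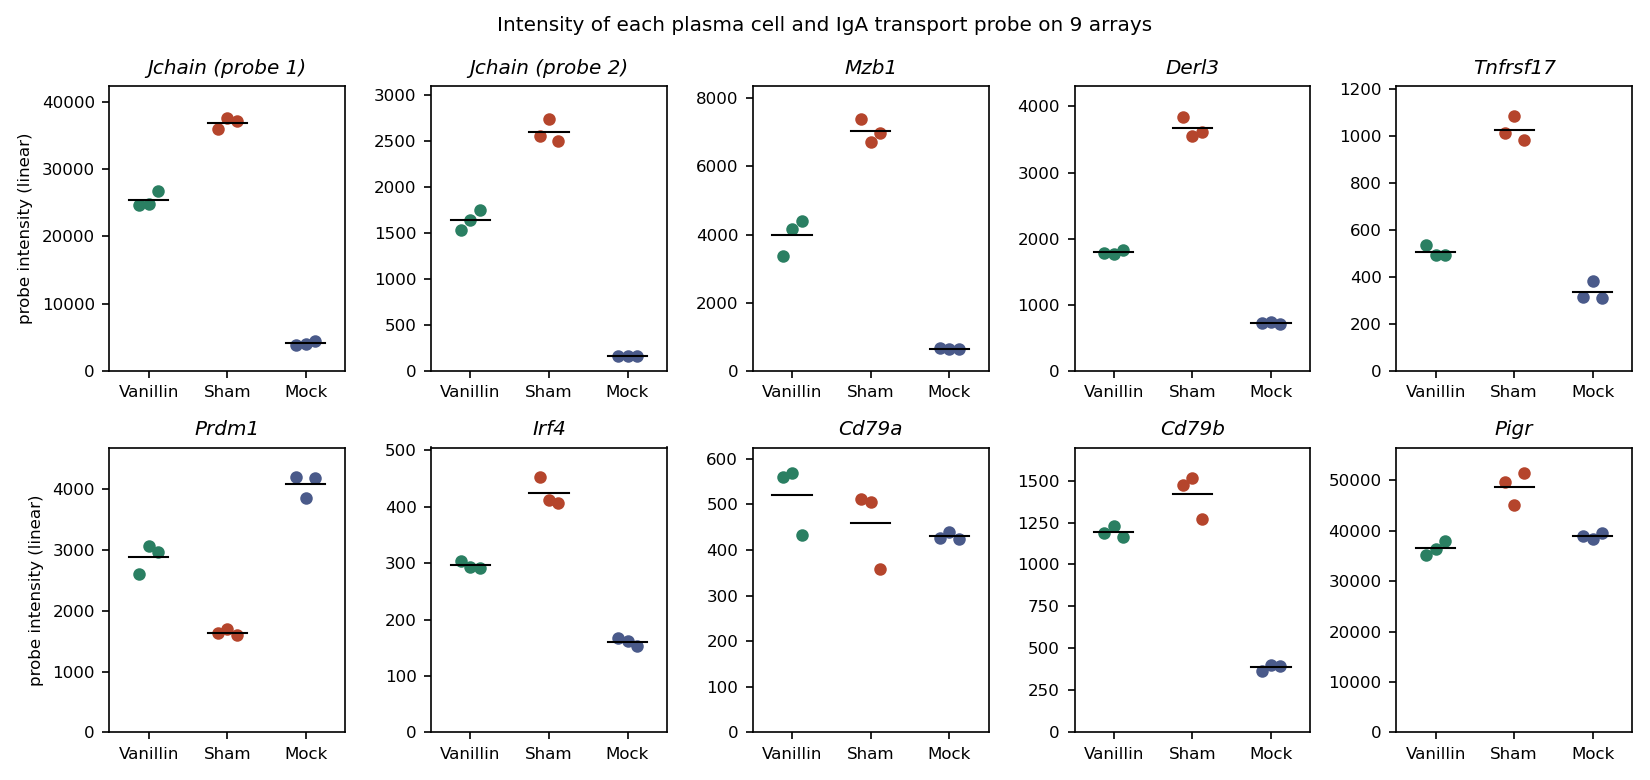
Linear probe intensity (vertical axes, each starting at 0) of each of the 10 probes on the 9 arrays, with Vanillin, Sham and Mock from left to right. Points are arrays and bars are group means: Jchain, Mzb1, Derl3, Tnfrsf17, Irf4 and Cd79b were highest in Sham and lowest in Mock, Prdm1 ran the other way, and the groups of Cd79a overlapped.

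Jchain encodes the joining chain of dimeric IgA and pentameric IgM. Its brighter probe (PH_mM_0014896) had 24608, 24822 and 26725 in Vanillin, 35988, 37555 and 37159 in Sham, and 3863, 4018 and 4499 in Mock. The 3 groups did not overlap, and even the lowest Vanillin array was far above every Mock array. The change was 3.16 (SE 0.066, adjusted p = 3.8e-10) in Sham minus Mock, -0.54 (SE 0.066, adjusted p = 0.00018) in Vanillin minus Sham and 2.62 (SE 0.066, adjusted p = 5.6e-09) in Vanillin minus Mock. The dimmer probe (PH_mM_0008170) had 1528, 1639 and 1752 in Vanillin, 2551, 2738 and 2499 in Sham, and 166, 160.1 and 161 in Mock. It gave the same order with larger changes, 3.87 in Sham minus Mock, -0.66 in Vanillin minus Sham and 3.21 in Vanillin minus Mock (SE 0.062 each). With vanillin the brighter and the dimmer probe stood at 68.8% and 63.3% of their Sham values.

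Mzb1 encodes an ER protein of B and plasma cells that assists immunoglobulin assembly and secretion. It had 3373, 4152 and 4411 in Vanillin, 7403, 6725 and 6989 in Sham, and 675, 653 and 636 in Mock. Sham arrays were the highest and Mock arrays the lowest, and Vanillin arrays were the most spread. The change was 3.39 (SE 0.094, adjusted p = 2.7e-09) in Sham minus Mock, -0.83 (SE 0.094, adjusted p = 0.00012) in Vanillin minus Sham and 2.57 in Vanillin minus Mock.

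Derl3 encodes a derlin of the ER-associated degradation pathway, which removes misfolded proteins, and is induced in ER stress. It had 1785, 1767 and 1821 in Vanillin, 3834, 3555 and 3618 in Sham, and 729, 743 and 708 in Mock. Replicates lay close together in every group. Derl3 rose by 2.31 (SE 0.048, adjusted p = 3.6e-10) in Sham minus Mock and fell by 1.03 (SE 0.048, adjusted p = 3.0e-07) in Vanillin minus Sham, the largest decrease among the 10 probes. Against Mock, Vanillin remained higher by 1.28, a 2.43-fold difference.

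Tnfrsf17 encodes BCMA, the receptor through which the cytokines APRIL and BAFF keep plasma cells alive. It had 534, 495 and 491 in Vanillin, 1011, 1083 and 982 in Sham, and 313, 381 and 311 in Mock. The groups did not overlap, with Vanillin arrays nearer to Mock than to Sham. Tnfrsf17 rose by 1.57 (SE 0.082, adjusted p = 2.4e-07) in Sham minus Mock, fell by 1.00 (SE 0.082, adjusted p = 1.6e-05) in Vanillin minus Sham, and differed by 0.58 (SE 0.082, adjusted p = 0.00034) in Vanillin minus Mock.

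The transcription factors of plasma cell differentiation moved in opposite directions. Irf4 encodes a factor that activates the plasma cell program in B cells and also acts in T cells and myeloid cells. It had 304, 294 and 291 in Vanillin, 452, 412 and 406 in Sham, and 167, 163 and 152 in Mock. The groups did not overlap. Irf4 rose by 1.31 (SE 0.058, adjusted p = 6.9e-08) in Sham minus Mock, fell by 0.49 (SE 0.058, adjusted p = 0.00014) in Vanillin minus Sham and was higher by 0.82 in Vanillin minus Mock.

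Prdm1 encodes Blimp-1, a repressor that completes plasma cell differentiation and is also made in skin, sebaceous gland and T cells. It had 2605, 3071 and 2962 in Vanillin, 1638, 1693 and 1595 in Sham, and 4207, 3853 and 4183 in Mock. Every Sham array was below every Vanillin array, and every Vanillin array below every Mock array, the reverse of Jchain. Prdm1 fell by 1.30 (SE 0.070, adjusted p = 2.9e-07) in Sham minus Mock, rose by 0.80 (SE 0.070, adjusted p = 2.4e-05) in Vanillin minus Sham, and was lower by 0.50 in Vanillin minus Mock (-0.50, SE 0.070, adjusted p = 0.00030). Squamous epithelium and skin markers moved in the same direction in many cases. All 16 fell in Sham minus Mock, against 25.3% of all named genes (median -5.88, Krt1 -9.72). In Vanillin minus Sham 15 of 16 rose, against 17.4% of all named genes (median 5.05, Krt1 8.69). In Vanillin minus Mock 12 were lower (75%, against 28.5% of all named genes) and 4 not called (median -0.74). Among the 4, picked from their values, Lor had 65136 in Vanillin and 60972 in Mock and Krt10 had 65464 in Vanillin and 65446 in Mock, all near the top of the scale. In Sham, Krt1, Ivl, Dsg3, Sprr1b and Krtdap of that list were below an intensity of 50. The direction was not particular to these markers. Of 12 adipocyte markers, 11 fell and 1 rose in Sham minus Mock, and 10 rose and 2 fell in Vanillin minus Sham. Of 11 smooth and skeletal muscle markers, 11 fell in Sham minus Mock, and 8 rose and 1 fell in Vanillin minus Sham. In Vanillin minus Mock 7 of the 12 and all 11 were lower. The shares of all named genes given above apply to these counts too. The part of any of these tissues in the change of Prdm1 was not tested.

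Of the B cell receptor chains, Cd79b passed the test in all 3 comparisons and Cd79a in none. Cd79b had 1190, 1229 and 1165 in Vanillin, 1471, 1513.5 and 1273 in Sham, and 363, 404 and 395 in Mock. Both AOM/DSS groups were well above Mock, and the lowest Sham array was just above the highest Vanillin array. Cd79b rose by 1.83 (SE 0.073, adjusted p = 3.5e-08) in Sham minus Mock, a 3.55-fold difference, and by 1.59 in Vanillin minus Mock. Between Vanillin and Sham it fell by 0.24 (SE 0.073, adjusted p = 0.023). That call was lost without Vanillin replicate 3 (adjusted p = 0.069), without Sham replicate 1 (adjusted p = 0.074) and without Sham replicate 2 (adjusted p = 0.077).

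Cd79a had 561, 568 and 434 in Vanillin, 513, 506 and 358 in Sham, and 426, 440.2 and 425 in Mock. Replicate 3 was the lowest array of Vanillin and of Sham, and the groups overlapped, though Vanillin was above Sham in 3 of 3 pairs with the same replicate number. The difference was 0.07 in Sham minus Mock (95% interval -0.26 to 0.40, limma adjusted p = 0.69), 0.18 in Vanillin minus Sham (-0.14 to 0.51, adjusted p = 0.33) and 0.26 in Vanillin minus Mock (-0.07 to 0.59, adjusted p = 0.17). With the replicate number as a block, the adjusted p in Vanillin minus Sham was 0.18 over all 9 arrays and 0.057 over the 6 compared. The sign in Sham minus Mock turned without Sham replicate 1 or Sham replicate 2, and array weights gave a call in Vanillin minus Mock (0.33, adjusted p = 0.019).

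Pigr encodes the receptor that carries IgA across the epithelium. It had 35103, 36432 and 37953 in Vanillin, 49591, 45042 and 51477 in Sham, and 39031, 38424 and 39616 in Mock. Sham arrays were the highest, and all 3 Vanillin arrays lay below all 3 Mock arrays. Pigr rose by 0.32 (SE 0.060, adjusted p = 0.0014) in Sham minus Mock, a 1.25-fold difference, and fell by 0.41 (SE 0.060, adjusted p = 0.00049) in Vanillin minus Sham. The difference of -0.10 in Vanillin minus Mock was not called (95% interval -0.23 to 0.04, adjusted p = 0.21), though array weights gave a call (adjusted p = 0.046). The probe is bright, at the 99.5 percentile of all probes and near the top of the intensity scale.

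**Figure D2:**
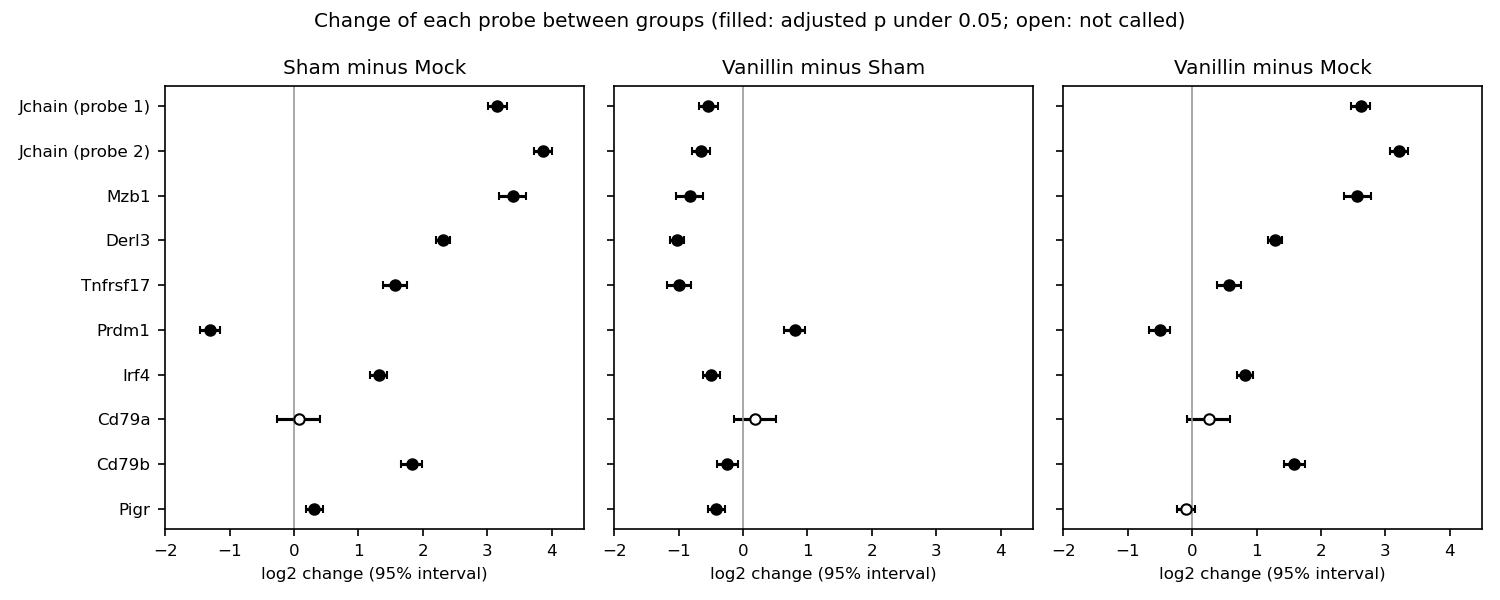
Log2 change of each of the 10 probes (horizontal axis, with 95% intervals from limma) in the 3 comparisons; filled points passed an adjusted p under 0.05. Changes in Sham minus Mock spread from -1.30 (Prdm1) to 3.87 (Jchain, dimmer probe), and those in Vanillin minus Sham from -1.03 (Derl3) to 0.80 (Prdm1).

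Differences taken within each array restate the changes above for pairs of measures. Jchain minus Cd79a, in log2, was 5.41, 5.41 and 5.89 in Vanillin, 6.09, 6.17 and 6.63 in Sham, and 3.13, 3.14 and 3.36 in Mock. The group means differed by 3.09 in Sham minus Mock, -0.72 in Vanillin minus Sham and 2.36 in Vanillin minus Mock. These are the change of Jchain less that of Cd79a in each comparison, given as a description and not as further evidence.

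Pigr minus the mean of the 17 colon epithelium markers was 1.90, 1.98 and 2.03 in Vanillin, 2.16, 2.05 and 2.27 in Sham, and 2.34, 2.41 and 2.38 in Mock. The differences were -0.22 in Sham minus Mock, -0.19 in Vanillin minus Sham and -0.40 in Vanillin minus Mock. Each had p = 0.1 in a two-sided exact permutation test of 3 against 3 arrays, unpaired, the smallest p this design allows. After adjustment over the 6 such tests it was 0.1. The 6 include those of Jchain minus Cd79a, each of which also gave p = 0.1 in the permutation test. Their sizes depended on the markers in the mean. Without the intestinal homeobox gene Cdx2, left out after the data were seen, they were -0.05 (exact permutation p = 0.6), -0.21 and -0.27 (exact permutation p = 0.1 for both). Lgals4 and Epcam averaged over 60000 in every group, near the top of the scale, and Krt8 and Krt18 were under 50 in at least 1 group. Without these 4, also left out after the data were seen, the differences were -0.45 in Sham minus Mock, -0.12 in Vanillin minus Sham and -0.56 in Vanillin minus Mock (exact permutation p = 0.1, 0.3 and 0.1). As a list, 11 epithelial markers rose, 1 fell and 5 were not called in Sham minus Mock (median 0.43), led by Cdx2 (3.13), Cdh17 (1.17), Hnf4a (0.67) and Gpa33 (0.67). These counts compare with 39.3% higher and 25.3% lower among all named genes. The vanillin comparison with Sham had 7 lower (41.2%, near the 35.1% of all named genes) and 10 not called (median -0.19), with Hnf4a at -0.63, Cdx2 at -0.61, Gpa33 at -0.54 and Cldn3 at -0.49.

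**Figure D3:**
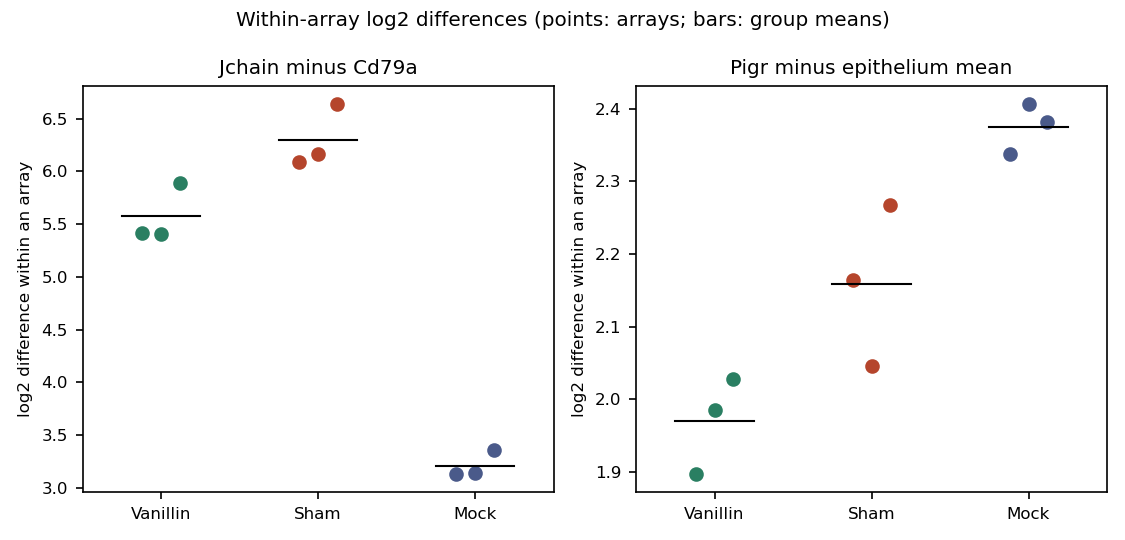
Within-array log2 differences (vertical axes, not starting at 0) for Jchain minus Cd79a and for Pigr minus the mean of the colon epithelium markers, with Vanillin, Sham and Mock from left to right. Points are arrays and bars are group means: the first measure is highest in Sham (6.09 to 6.63), the second is highest in Mock (2.34 to 2.41).

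Other genes listed for plasma cells followed the members in part. The list includes genes of the ER such as Pdia4 and Fkbp11, and which cells made the RNA was not tested. Of 23 measured, 15 rose, 4 fell and 4 were not called in Sham minus Mock (median 0.52, against 0.11 over all named genes, of which 39.3% were called higher and 25.3% lower). The surface receptor gene Slamf7 rose by 3.26 (635 in Sham, 52 in Mock), Pou2af1, a coactivator of octamer factors, by 2.24, Tent5c, which stabilises immunoglobulin mRNA, by 2.11 and the ER foldase gene Fkbp11 by 1.39. Chosen for naming after seeing the values, the 4 that fell were Ell2 (-0.90), Sdc1 (-0.57), Edem1 (-0.23) and Cav1 (-0.17). Only 2 of the 23 were called lower without Sham replicate 2 or 3, or Mock replicate 1 or 3. In Vanillin minus Sham 15 fell, 1 rose and 7 were not called (median -0.35, against -0.11 over all named genes, of which 35.1% were called lower and 17.4% higher). Among those that fell were Slamf7 (-1.26), Tent5c (-1.10), the ER chaperone gene Pdia4 (-0.58) and Trp53inp1 (-0.55), and Ell2 was the riser (0.33). Xbp1, the driver of ER expansion, named after its values were seen, had 65136 in Vanillin, 65471 in Sham and 59343 in Mock, at the top of the scale. In Vanillin minus Mock 12 were higher, 5 lower and 6 not called (median 0.16, against 0.00 over all named genes, of which 26.8% were called higher and 28.5% lower).

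Of 26 mature B cell genes, 18 rose (69.2%, against 39.3% of all named genes), 3 fell (11.5%, against 25.3%) and 5 were not called in Sham minus Mock (median 0.54). The receptor gene Cd40 rose by 1.42 (0.64 on its second probe), the BAFF receptor gene Tnfrsf13c by 1.49 and the transcription factor gene Spib by 1.34. Fcrla also rose, but was dim, with 73.5 in Sham and 6.33 in Mock, so the size of its change depends on the constant of 16. The 3 that fell (again picked from their values) were Ebf1 (-1.42), Bcl6 (-0.78) and Cd22 (-0.32). Vanillin minus Sham had 10 lower (38.5%, near the 35.1% of all named genes), 2 higher (7.69%, against 17.4%) and 14 not called (median -0.18, against -0.11). The surrogate light chain family member Vpreb3 was at -0.84 and Spib at -0.72. The risers were the transcription factor genes Ebf1 (0.92) and Bcl6 (0.71), and without Sham replicate 3 there were 4. Against Mock, 14 were higher in Vanillin (53.8%, against 26.8% of all named genes), 2 lower (7.69%, against 28.5%) and 10 not called (median 0.49). Among the higher was Ms4a1, which encodes the B cell antigen CD20, at 2.32 (107 in Vanillin, 9.15 in Mock). None of the probes named for a gene carried the symbol of an immunoglobulin heavy, kappa or lambda constant or variable segment, so IgA itself was not analysed here.

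Among 29 genes of IgA class switching and of plasma cell homing, 18 were higher (62.1%, against 39.3% of all named genes), 5 lower (17.2%, against 25.3%) and 6 without a call in Sham minus Mock (median 0.43). Cxcl13, the chemokine that draws B cells into follicles, rose by 3.33, the cytokine gene Il6 by 3.19 and the lymphotoxin gene Ltb by 1.86, and Aldh1a1, an enzyme of retinoic acid synthesis, fell by 1.86. The other 4 that fell (picked from their values) were Ccl28 (-0.68), Cxcl12 (-0.56), Cd40lg (-0.45) and Tslp (-0.28 on its brightest probe, with its other probes not in accord). For Vanillin minus Sham the numbers were 9 lower (31%), 3 higher (10.3%, against 17.4% of all named genes) and 17 not called (median -0.10). The share lower and the median were close to those of all named genes (35.1% and -0.11). Ccl28, the epithelial chemokine that draws IgA plasma cells, fell by 1.11 and had 757 in Vanillin, 1647 in Sham and 2658 in Mock, the lowest in Vanillin. Ccr10, its receptor on IgA plasma cells, fell by 0.65 and had 166 in Vanillin, 267 in Sham and 157 in Mock. Cxcl13 fell by 0.78 and Ccl25 by 0.65 (-0.22 and not called on its second probe). Compared with Mock, 17 were higher in Vanillin (58.6%, against 26.8% of all named genes), 2 lower (6.9%, against 28.5%) and 10 not called (median 0.35). The 2 that were lower were Ccl28 (-1.80) and Aldh1a1 (-1.78), and there were 4 with array weights.

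Of 19 cytokine, receptor and transcription factor genes known to act on Pigr, 9 rose (47.4%), 5 fell (26.3%) and 5 were not called in Sham minus Mock (median 0.25), shares near the 39.3% and 25.3% of all named genes. The NF-κB subunit gene Nfkb1 fell by 3.05, while the double-stranded RNA receptor gene Tlr3 rose by 1.21, the interferon-γ receptor gene Ifngr2 by 0.78 and Tnf by 0.72. Nfkb1, on 1 probe, had 4692 in Vanillin, 736 in Sham and 6229 in Mock, the order of the squamous, adipocyte and muscle sums. The part of those tissues in its change was not tested. In Vanillin minus Sham 4 rose (21.1%, against 17.4% of all named genes), 5 fell (26.3%, against 35.1%) and 10 were not called (median 0.02), with Nfkb1 at 2.65, Tlr3 at -0.75, Irf1 at 0.69 and Ifngr2 at -0.45. A second, dim probe of Irf1 gave -0.19 and was not called, and 8 of the 19 were called lower without Vanillin replicate 1. In Vanillin minus Mock 7 were higher (36.8%, against 26.8% of all named genes), 2 lower (10.5%, against 28.5%) and 10 not called (median 0.09). Only 1 was lower without Vanillin replicate 2 or 3, or Mock replicate 2 or 3.

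**Figure D4:**
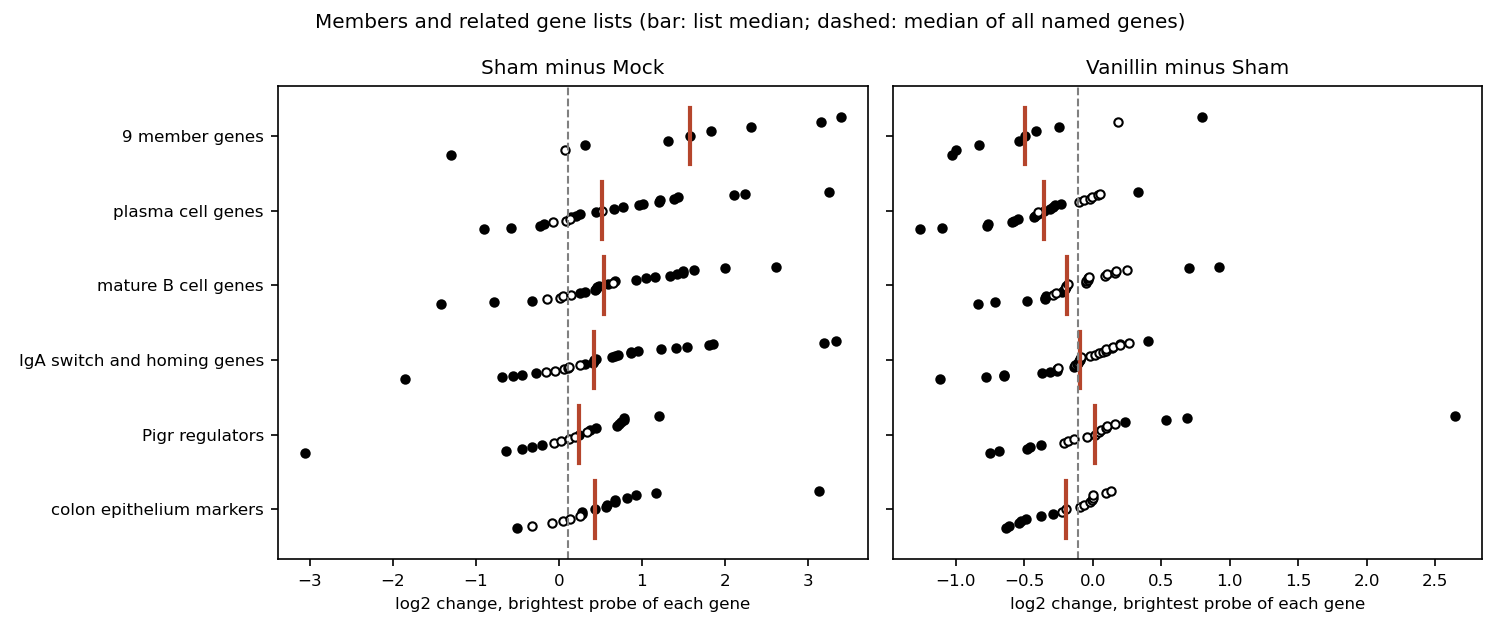
Log2 change of each gene (horizontal axes, brightest probe) for the 9 members and 5 related lists, in Sham minus Mock (left) and Vanillin minus Sham (right); filled points passed an adjusted p under 0.05. The red bar is the list median and the dashed line the median of all named genes: the members' median was 1.57 on the left, against 0.11 over all named genes, and -0.49 on the right, against -0.11.

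Among 17741 other named genes, those whose pattern lay closest to that of Jchain over the 9 arrays were the intestinal homeobox genes Isx and Cdx2, then Sox17, Mdga2 and Rnf183. Their root mean square distances, in log2 after centring each gene on its own mean, were 0.063, 0.083, 0.10, 0.11 and 0.12. Mzb1, the closest member, was at 0.17. Isx had 503 in Vanillin, 733 in Sham and 70.0 in Mock. The genes closest to Pigr were Brat1, Hdac8, Exosc4, Bahcc1 and Taf6l (0.032 to 0.043), and those closest to Cd79a were Rnf212, Fgf15, Fam228b, Slc8a1 and Gm10505 (0.059 to 0.090).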

How the data were processed

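Colon RNA of 9 samples was amplified and labelled with Cy5, per the labels' protocols. The deposited values are probe intensity on a linear scale. A few lie below 0 and the quartiles of all arrays agree to within 0.0128 (log2), the form that background subtraction and quantile normalization by the authors would give, though no label states these steps. The submitters' processing notes name limma, without role or version. Scanner, background method and genome build are absent from the labels and file headers used here. Median intensity per array was 319.6 to 320.1, and array number limits the precision. Arrays correlated at 0.995 to 0.998 within a group and at 0.926 to 0.973 between groups.

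Of 26423 probes, 20377 carried 1 gene symbol, none several and 6046 none, and 2126 symbols were updated through a synonym. Values below 0 were set to 0, and log2(value + 16) was fitted with 3 group means over all 9 arrays in limma 3.58.1 (R 4.3.3, lmFit and eBayes, two-sided moderated test, 6 residual degrees of freedom and 2.69 prior ones), with Benjamini-Hochberg adjustment over all probes in each comparison. The code was tested on simulated data. Figures used matplotlib 3.10.9.

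Genes with several probes are given by the brightest, members by every probe. Named from each list are up to 4 genes with the smallest p, and the 5 genes nearest to Jchain, Pigr and Cd79a. Besides the lists in the report, T cell, plasmacytoid dendritic cell and macrophage and dendritic cell markers were counted. Members and lists were chosen with earlier results of these data known.

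Deviations of arrays with the same replicate number correlated at 0.17, 0.13 and 0.20 between Vanillin and Sham. Between either group and Mock they correlated at -0.29 to -0.02. Arrays with unlike numbers correlated at -0.203 to 0.002 between Vanillin and Sham, but at up to 0.215 where Mock was included (Vanillin replicate 3 with Mock replicate 1). The labels do not say what the number marks, so taking it to pair Vanillin with Sham was an assumption, and the main fit did not use it. The block on replicate number was an alternative, with other pseudocounts, filters, scalings, weights and single arrays left out.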

Additional observations from a re-analysis of the deposited data

How the results depend on the processing

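Over all alternatives, 473 of 480 changes of single member probes kept their direction and their side of the threshold. The Cd79a change in Sham minus Mock ranged from -0.014 without Sham replicate 1 to 0.24 without Sham replicate 3 as single arrays were left out, and was also just below 0 without Sham replicate 2. None of these was called, and the cause was not tested. The other 5 were Cd79b in Vanillin minus Sham, lost in 3 settings that left out 1 array, and Cd79a and Pigr in Vanillin minus Mock, each called with array weights. With array weights, 2 member probes rather than 1 were called lower in Vanillin minus Mock. No other count of member probes moved by over 1.5 times. With the replicate block, whether over 9 arrays or over the 6 compared (the latter added after seeing the data), 8 member probes were called lower and 1 higher in Vanillin minus Sham, the counts without it, and no member's call changed. Among the counts of lists in that comparison, the block over 6 arrays moved only the adipocyte markers called lower by over 1.5 times (1, against 2). Over 6 arrays in Vanillin minus Mock it left 3 plasma cell genes called lower, against 5. All within-array differences kept their sign in the 66 recomputations, though the Pigr values moved with the markers in the epithelium mean. With pseudocounts of 1 and 64, the change of Jchain's dimmer probe in Sham minus Mock was 3.99 and 3.55, and that of Irf4 was 1.39 and 1.12. The top of the scale limits Xbp1, Lgals4, Epcam, Lor, Krt10 and the mature B cell gene Cd81, which was over 60000 in every group. Acta2, Car3, Krt13 and Krt14, which enter the tissue sums, were over 60000 in Mock, and Car3 also in Vanillin. Signal near background limits Fcrla, Ms4a1 and Krt8, and a low Mock value (52) limits the size of the Slamf7 changes against Mock.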

Other observations

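Markers of other immune cells that can make Irf4, Prdm1 or Mzb1 moved both ways. Among 15 markers of T cells, 8 were higher (53.3%, against 39.3% of all named genes), 4 lower (26.7%, near the 25.3% of all named genes) and 3 without a call in Sham minus Mock (median 0.33), with Cd28 at 1.46, Cd3e at 1.11, Cd247 at -1.26 and Cd3g at -0.78. In Vanillin minus Sham 5 rose (33.3%, against 17.4%), 4 fell (26.7%, against 35.1%) and 6 were not called (median -0.15), with Trat1 at 1.09, Cd247 at 0.99, Cd3g at 0.85 and Cd3e at -0.47. In Vanillin minus Mock 7 were higher (46.7%, against 26.8% of all named genes), 2 lower (13.3%, against 28.5%) and 6 not called (median 0.27). Only 1 was lower without Vanillin replicate 2 or 3, or Mock replicate 3. Among 10 markers of plasmacytoid dendritic cells, 7 were higher (70%, against 39.3% of all named genes), 1 lower (10%, against 25.3%) and 2 without a call in Sham minus Mock (median 0.65). Lair1 was at 2.34 (0.63 on its second probe), Bst2 at 1.27 and Irf8 at 1.23. The 1 that fell was Cox6a2 (-4.95), which muscle also makes (-0.73 on its second probe). In Vanillin minus Sham 5 fell (50%, against 35.1% of all named genes), 2 rose (20%, near the 17.4% of all named genes) and 3 were not called (median -0.21). Those that rose were Cox6a2 (2.76, but 0.15 and not called on its second probe) and Lair1 (0.38), and among those that fell were Irf8 (-0.72), Bst2 (-0.61) and Irf7 (-0.45). In Vanillin minus Mock 6 were higher (60%, against 26.8% of all named genes), 1 lower (10%, against 28.5%) and 3 not called (median 0.35).

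Among 15 markers of macrophages and dendritic cells, 7 were higher (46.7%, against 39.3% of all named genes), 2 lower (13.3%, against 25.3%) and 6 without a call in Sham minus Mock (median 0.16), with the lipopolysaccharide co-receptor gene Cd14 at 2.05, Marco at 1.74, Cd163 at -2.81 and Cd209a at -1.55. In Vanillin minus Sham 8 rose (53.3%, against 17.4%), 1 fell (6.67%, against 35.1%) and 6 were not called. The median was 0.18, positive where that of the members was negative. Cd163 was at 2.29, Cd209a at 1.16, Cd14 at 0.57 and Cd68 at 0.37. In Vanillin minus Mock 10 were higher (66.7%, against 26.8% of all named genes), 2 lower (13.3%, against 28.5%) and 3 not called (median 0.70). Cd14 was at 2.62 and C1qc at 1.10.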
